A study of Homo sapiens with 4 samples.

Results

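The 10 genes described here are the lysyl oxidases LOX, LOXL1, LOXL2, LOXL3 and LOXL4, the collagen genes COL1A1, COL4A1 and COL4A2, and the matrix glycoprotein genes FN1 and SPARC. They were chosen by symbol, each matched 1 Ensembl gene among the 20263 in the count table, and all 10 had enough counts to be tested. RNA was sequenced from MDA-MB-231 cells, a mesenchymal-like line from a human breast cancer that lacks hormone receptors and HER2 amplification, grown in medium with 10% serum. For 24 h the cells received either DMSO, the solvent control, or RB-BC, which the series title calls a ribociclib derivative. Ribociclib inhibits the cell cycle kinases CDK4 and CDK6. Each group held 2 libraries, named DMSO 1, DMSO 2, RB-BC 1 and RB-BC 2, all of the same cell line. The treatment protocol writes the compound as Rib_CA, and the labels give neither the dose nor the relation between the names. Nothing in the labels says that the libraries came from separate cultures, so p-values measure only the spread between these libraries, and this spread may be technical.

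Library totals lay between 34774542 and 42786422 counts. Mitochondrially encoded genes held 8.68% to 10.3% of counts in 3 libraries and 21.7% in DMSO 2 (95% Wilson interval 21.68% to 21.71%, counting error only). Levels are TMM-scaled CPM, that is counts relative to library size, given for each library and as mean ± SD of n = 2. Fold changes are RB-BC over DMSO on the log2 scale with their standard error (SE) or 95% interval. A gene is said to rise or fall where edgeR's quasi-likelihood test gave a Benjamini-Hochberg adjusted p under 0.05 over all 13744 genes tested. The SE and the interval were worked back from the statistic of that test, so they add no evidence beyond its p-value.

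Lysyl oxidases are secreted copper enzymes that oxidise lysines in collagen and elastin, which starts the covalent cross-links that stiffen the matrix. Collagen I is the main fibre of stroma and bone, collagen IV is the network of basement membranes, and fibronectin is laid down early and serves as a scaffold on which collagen and lysyl oxidase assemble. In breast tumours LOX is known as a hypoxia-induced gene linked to matrix stiffening and metastasis.

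LOX rose with RB-BC while LOXL4 and COL1A1 fell, and the other 7 genes did not pass the test. LOX (ENSG00000113083) was the 1 gene of 10 that rose, where 8.58% of all tested genes did. LOXL4 and COL1A1 were the 2 of 10 that fell, where 7.53% of all tested genes did. The median log2 fold change of the 10 was −0.08, beside −0.0016 for all tested genes. Groups did not overlap for 5 of the 10, namely LOX upward and LOXL2, LOXL4, COL1A1 and COL4A2 downward, where 65.2% of all tested genes had no overlap, a background that 5 of 10 does not exceed.

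**Figure D1:**
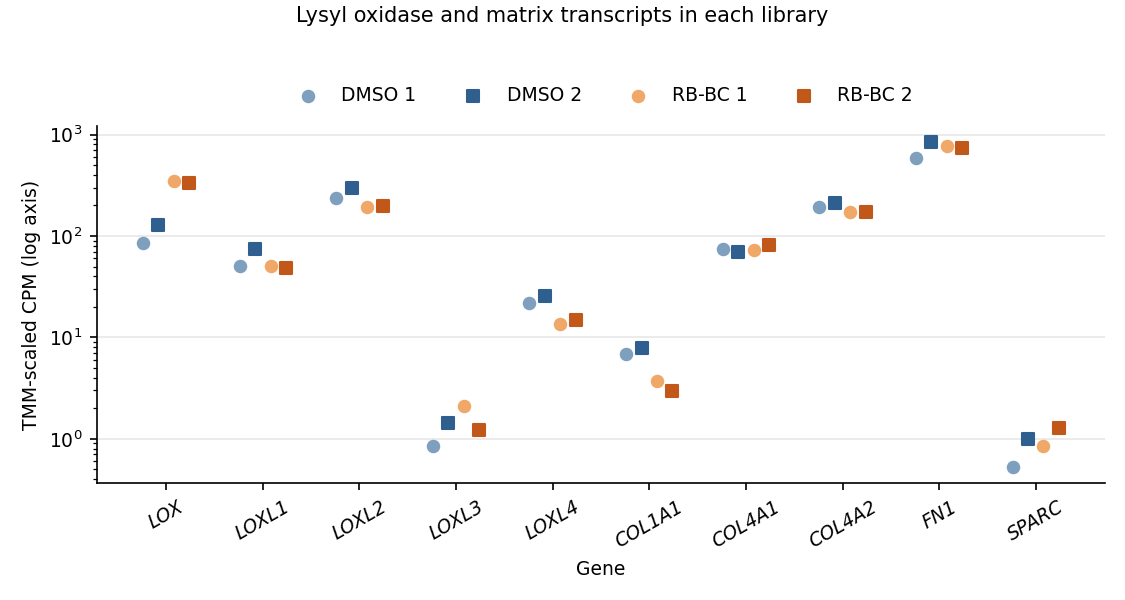
TMM-scaled CPM on a log axis for each of the 10 genes, with 1 point per library (circles replicate 1, squares replicate 2; blue DMSO, orange RB-BC). Both RB-BC points of LOX, at 347 and 331 CPM, lie above both DMSO points, and those of LOXL4 and COL1A1 lie below.

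LOX, the founding member of the family, had 85.9 CPM (DMSO 1) and 128 CPM (DMSO 2), against 347 CPM (RB-BC 1) and 331 CPM (RB-BC 2). The RB-BC libraries lay close together and far above both DMSO libraries, which differed more from each other. The group means were 107 ± 29.5 and 339 ± 11.0 CPM (SD, n = 2). The log2 fold change was 1.67 ± 0.22 (SE; 95% interval 1.13 to 2.20) or 3.18-fold (edgeR adjusted p = 0.0113). The rise held in all 12 alternative analyses, between 1.41 without DMSO 1 and 1.98 without DMSO 2. Its largest adjusted p there was 0.0492, without RB-BC 1. In GENCODE release 29, 138 of the 5547 exon bases of LOX also belong to SRFBP1 on the other strand, and SRFBP1, at 17.7 ± 3.15 and 16.7 ± 0.75 CPM (SD, n = 2), did not pass (−0.08 ± 0.18, edgeR adjusted p = 0.780).

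The 250 bases before the start of LOX are shown because it is the gene of the set that rose. They are RefSeq sequence of GRCh38.p14, chr5:122078260-122078509, minus strand. Of the 3 RefSeq windows of LOX only this 1 lies at the gene start, and the others are not described here. Capitals mark the letters ACGTG or GCGTG on either strand, the core of the hypoxia response element.
LOX: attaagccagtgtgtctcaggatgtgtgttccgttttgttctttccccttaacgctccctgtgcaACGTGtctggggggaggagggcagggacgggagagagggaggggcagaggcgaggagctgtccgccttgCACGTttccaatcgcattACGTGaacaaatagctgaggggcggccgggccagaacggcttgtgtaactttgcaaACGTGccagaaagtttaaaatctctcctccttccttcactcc
The window held 4 matches, and 3.22% of the 35116 RefSeq windows of this length held as many or more, while 43.2% held at least 1. Both strands were searched, and no match overlaps another. Of the other members with a window at the gene start, COL4A2 held 1 match, and LOXL1, LOXL4, COL4A1, FN1 and SPARC held 0. A match of letters is a description and shows no binding. The TATA box TATAAA was not in the LOX window, nor was the AP-1 motif TGANTCA or the NF-kB motif. The CCAAT box matched 1 time in it and is not marked, where 32.0% of all windows held a match. The motif GGGCGG also matched 1 time and is not marked, where 42.6% of all windows held a match. All these motifs were searched in every window, and each sequence shown here marks a different one. The percentages make no allowance for this choice among motifs.

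LOXL2, which also acts on basement membrane collagen IV, was the lysyl oxidase with the highest level per kilobase in both DMSO libraries. It had 235 CPM (DMSO 1) and 299 CPM (DMSO 2), against 191 CPM (RB-BC 1) and 199 CPM (RB-BC 2). Both RB-BC libraries lay below both DMSO libraries, and the step down from DMSO 1 was smaller than the gap between the DMSO libraries. The fold change was −0.45 ± 0.17 (SE; 95% interval −0.87 to −0.04), which did not pass (edgeR adjusted p = 0.119). It was −0.62 with DMSO 1 left out and −0.27 with DMSO 2 left out, each with a lone DMSO library as control. In GENCODE release 29, 120 of the 5707 exon bases of LOXL2 also belong to ENTPD4 on the same strand. ENTPD4 was at 62.9 ± 15.7 CPM in DMSO and 46.0 ± 0.22 CPM in RB-BC (SD, n = 2; −0.45 ± 0.20 SE, edgeR adjusted p = 0.161), and whether the genes share reads was not tested.

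LOXL1, which is needed for elastic fibre renewal, had 50.3 CPM (DMSO 1) and 73.6 CPM (DMSO 2), against 50.6 CPM (RB-BC 1) and 48.8 CPM (RB-BC 2). DMSO 2 alone stood high, and DMSO 1 lay between the RB-BC libraries. The fold change of −0.32 ± 0.20 (SE; 95% interval −0.82 to 0.18) did not pass (edgeR adjusted p = 0.314). Leaving out DMSO 1 moved it to −0.57, while leaving out DMSO 2 moved it to −0.02.

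LOXL4 had 21.6 CPM (DMSO 1) and 25.4 CPM (DMSO 2), against 13.6 CPM (RB-BC 1) and 14.9 CPM (RB-BC 2). The groups did not overlap, and each pair was tight beside the gap between them. LOXL4 fell by 0.72 ± 0.17 on the log2 scale (SE; 95% interval −1.13 to −0.32; edgeR adjusted p = 0.0381). The call was lost with library totals as the only scaling (−0.66, edgeR adjusted p = 0.0926) and with either RB-BC library left out (−0.66 and −0.79, edgeR adjusted p = 0.281 and 0.159).

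The 250 bases before the start of LOXL4 are shown as those of the lysyl oxidase that fell, with the NF-kB motif in capitals (RefSeq, GRCh38.p14, chr10:98268195-98268444, minus strand).
LOXL4: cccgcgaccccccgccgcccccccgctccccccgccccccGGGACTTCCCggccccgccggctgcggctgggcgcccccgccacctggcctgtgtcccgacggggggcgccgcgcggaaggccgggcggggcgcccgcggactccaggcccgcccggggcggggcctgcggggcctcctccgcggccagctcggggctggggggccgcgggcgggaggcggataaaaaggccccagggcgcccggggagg
The marked stretch matched the motif on both strands at the same place, and 9.96% of all windows of this length held a match. Of the other 6 members with a window at the gene start in the table (LOX, LOXL1, COL4A1, COL4A2, FN1 and SPARC), 0 held one. So few windows cannot be set apart from the 9.96%. The LOXL4 window also held 6 matches of GGGCGG, which are not marked.

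LOXL3 was near the lower end of what was tested, with counts of 32 (DMSO 1), 48 (DMSO 2), 91 (RB-BC 1) and 53 (RB-BC 2). On the CPM scale these were 0.85, 1.43, 2.10 and 1.21, so that the groups overlapped and RB-BC 1 stood highest. The fold change was 0.54 ± 0.44 (SE; 95% interval −0.53 to 1.61; edgeR adjusted p = 0.417). LOXL3 shares 625 of its 4363 exon bases with HTRA2 and 216 with DOK1, both on the other strand. HTRA2 rose by 0.69 (edgeR adjusted p = 0.0463) from 20.1 ± 1.13 to 32.5 ± 5.09 CPM (SD, n = 2). Whether reads of these genes were counted under LOXL3 was not tested.

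Within the family, LOX took the place of LOXL2 as the gene with most counts. LOX held 21.8% of the counts of the 5 genes in DMSO 1 (95% Wilson interval 21.2% to 22.5%) and 24.2% in DMSO 2 (23.6% to 24.8%). In RB-BC 1 it held 57.4% (56.8% to 58.0%) and in RB-BC 2 it held 55.7% (55.1% to 56.3%). These intervals cover counting error only, and within each group those of the libraries do not overlap, so they understate the spread between libraries. LOXL2 went the other way, from 59.7% and 56.8% in DMSO to 31.6% and 33.4% in RB-BC.

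These shares do not depend on how libraries were scaled. LOX counts per LOXL2 count numbered 0.366 (DMSO 1) and 0.426 (DMSO 2), against 1.81 (RB-BC 1) and 1.67 (RB-BC 2), a 4.40-fold difference between the groups' geometric means. Per LOXL1 count the DMSO libraries had 1.71 and 1.73 LOX counts and the RB-BC libraries 6.86 and 6.78. The smallest two-sided p of an exact permutation test on these 4 libraries is 0.333, so the ratios carry no call of their own. Counts per kilobase of the longest coding transcript allow only roughly for gene length, since the transcripts these cells use were not determined. On that scale the LOX share was 15.2% and 16.9% in DMSO and 46.0% and 44.5% in RB-BC. Summed over the 5 genes, the family had 393 and 527 CPM in DMSO and 604 and 595 CPM in RB-BC.

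**Figure D2:**
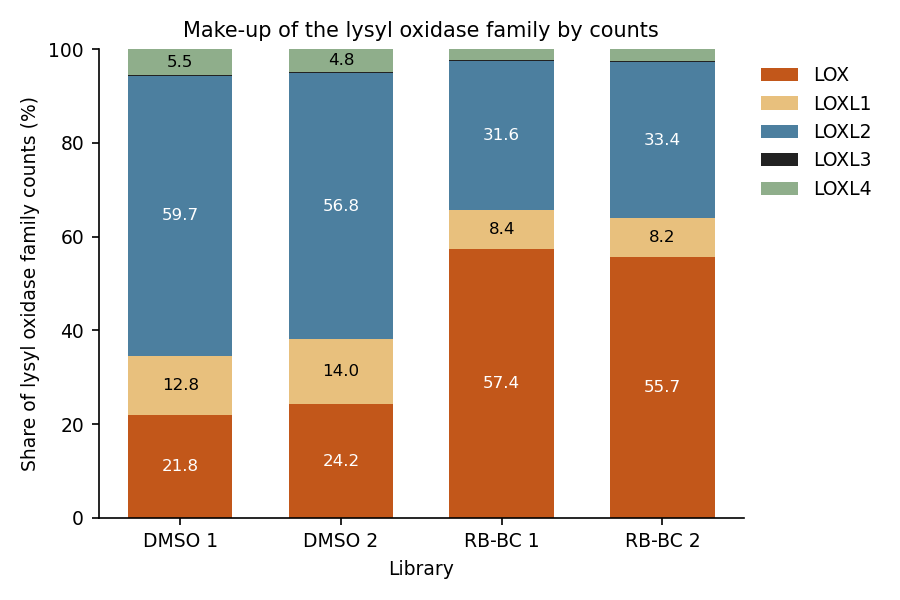
Share of the counts of the 5 lysyl oxidase genes (%) held by each, with 1 stacked bar per library. The LOX segment goes from 21.8% and 24.2% in the DMSO libraries to 57.4% and 55.7% in the RB-BC libraries, and LOXL3 is a thin line in all 4.

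COL1A1, the gene of the collagen I alpha 1 chain, was low at the start and lower with RB-BC. It had 6.93 CPM (DMSO 1) and 7.91 CPM (DMSO 2), against 3.73 CPM (RB-BC 1) and 2.97 CPM (RB-BC 2), from 261, 265, 162 and 130 counts. Both RB-BC libraries lay below both DMSO libraries, with a gap larger than either pair's spread. COL1A1 fell by 1.15 ± 0.24 on the log2 scale (SE; 95% interval −1.72 to −0.57), or 2.21-fold (edgeR adjusted p = 0.0290). The call was lost with library totals as the only scaling (−1.09, edgeR adjusted p = 0.0550) and with RB-BC 1 or RB-BC 2 left out (−1.32 and −0.99, edgeR adjusted p = 0.127 and 0.173). COL1A2, whose product is the partner chain of the usual collagen I trimer, had 0 counts in all 4 libraries, where a floor of 3 counts allows up to 0.0895 CPM in DMSO 2 and less in the others.

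COL4A1 and COL4A2 encode the chains of the most widespread collagen IV trimer and lie head to head. Their RefSeq starts leave 126 bases between them, shown because both genes are read outward from it (GRCh38.p14, chr13:110307158-110307283, written in the direction of COL4A2, the CCAAT box in capitals).
COL4A1-COL4A2: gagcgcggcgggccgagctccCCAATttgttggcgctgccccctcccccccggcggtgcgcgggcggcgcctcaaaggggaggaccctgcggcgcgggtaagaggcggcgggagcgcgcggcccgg
CCAAT, on either strand, was in 32.0% of all RefSeq windows of 250 bases before a start, and the stretch between these genes held 1 match.

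COL4A1 had 74.4 CPM (DMSO 1) and 70.0 CPM (DMSO 2), against 73.3 CPM (RB-BC 1) and 81.6 CPM (RB-BC 2), and the groups overlapped. Its fold change was 0.10 ± 0.14 (SE; 95% interval −0.24 to 0.45; edgeR adjusted p = 0.638), so a 2-fold change in either direction lies outside the interval. COL4A2 had 194 CPM (DMSO 1) and 210 CPM (DMSO 2), against 174 CPM (RB-BC 1) and 171 CPM (RB-BC 2). The groups did not overlap, yet the fold change of −0.23 ± 0.14 (SE; 95% interval −0.57 to 0.11) did not pass (edgeR adjusted p = 0.283). COL4A1 counts per COL4A2 count were 0.383 and 0.333 with DMSO against 0.422 and 0.477 with RB-BC, 1.26-fold higher by geometric means, again without overlap and without a test that could pass.

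FN1, the fibronectin gene, had the highest level per kilobase of the 10 in every library, in DMSO 1 by little (66.2 CPM per kilobase, beside 66.1 for LOXL2). It had 590 CPM (DMSO 1) and 841 CPM (DMSO 2), against 767 CPM (RB-BC 1) and 740 CPM (RB-BC 2). The DMSO libraries were the lowest and the highest of the 4, with both RB-BC libraries between them. The fold change was 0.08 ± 0.21 (SE; 95% interval −0.43 to 0.58; edgeR adjusted p = 0.821), and it turned to −0.16 without DMSO 1 and was 0.35 without DMSO 2, passing in neither (edgeR adjusted p = 0.338 and 0.0748).

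SPARC, a calcium-binding glycoprotein that binds collagen, had counts of 20 (DMSO 1), 33 (DMSO 2), 37 (RB-BC 1) and 56 (RB-BC 2). These are 0.53, 0.98, 0.85 and 1.28 CPM, and the groups overlapped. Its fold change was 0.50 ± 0.47 (SE; 95% interval −0.64 to 1.64; edgeR adjusted p = 0.482), so a rise of over 2-fold lies inside the interval.

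**Figure D3:**
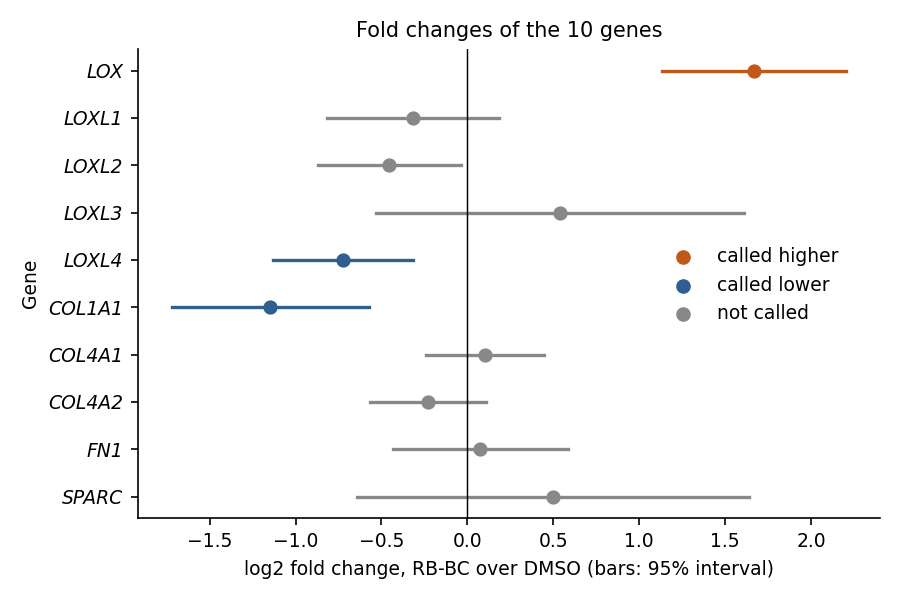
Log2 fold changes, RB-BC over DMSO, of the 10 genes with 95% intervals worked back from edgeR's quasi-likelihood test (orange, rose; blue, fell; grey, did not pass). LOX, at 1.67, lies right of 0, LOXL4 and COL1A1 lie left of it, and the widest intervals belong to LOXL3 and SPARC, the genes with fewest counts.

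Levels of different genes can be compared roughly, per kilobase of the longest coding transcript. In DMSO the order was FN1 (80.3 ± 19.9 CPM per kilobase; SD, n = 2), LOXL2 (75.2 ± 12.9), COL4A2 (31.1 ± 1.71), LOXL1 (26.4 ± 7.0), LOX (20.9 ± 5.78), COL4A1 (10.9 ± 0.47), LOXL4 (6.43 ± 0.74), COL1A1 (1.10 ± 0.10), LOXL3 (0.33 ± 0.12) and SPARC (0.20 ± 0.09). The ranges of FN1 and LOXL2 overlapped, as did those of COL4A2 and LOXL1, of LOXL1 and LOX, and of LOXL3 and SPARC. In RB-BC the order was the same except that LOX (66.5 ± 2.16 CPM per kilobase) stood second, between FN1 (84.6 ± 2.13) and LOXL2 (54.9 ± 1.46), and there only COL1A1 (0.50 ± 0.08) and LOXL3 (0.47 ± 0.18) overlapped as neighbours.

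DMSO 2 was above DMSO 1 for 9 of the 10 genes, all but COL4A1, with a median log2 difference of 0.43, beside 50.03% of all tested genes and a median of 0.00054. The widest gaps were in SPARC (0.89), LOXL3 (0.75), LOX (0.57), LOXL1 (0.55) and FN1 (0.51). DMSO 2 is also the library with 21.7% of counts from mitochondrially encoded genes, and the part of that in the gaps was not tested. With those genes removed before scaling the fold changes of the 10 genes were as above and LOX, LOXL4 and COL1A1 still passed (edgeR adjusted p = 0.0107, 0.0382 and 0.0278).

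**Figure D4:**
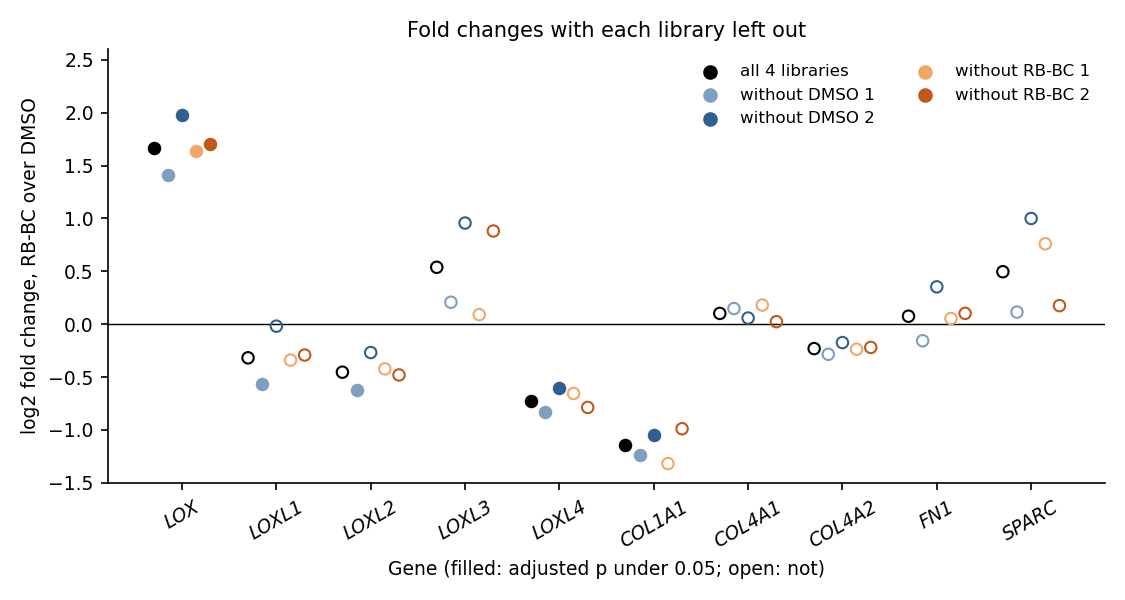
Log2 fold changes of the 10 genes, RB-BC over DMSO, from all 4 libraries (black) and with each library left out (coloured); filled points passed edgeR's test and open points did not. LOX is filled in all 5 fits, LOXL4 and COL1A1 are open without either RB-BC library, and the FN1 points lie on both sides of 0.

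Other genes of the matrix were taken from 10 lists. Counts for each list are to be read beside the 8.58% of all tested genes that rose and the 7.53% that fell. The share of all tested genes at an unadjusted p under 0.05 is not given here, so list counts at that threshold have no background. Of 141 listed genes besides the 10, 106 were tested, 16 rose and 7 fell, which is 21.7% called beside 16.1% of all tested genes. Their median log2 fold change was 0.20. The lists were chosen with earlier results of these data known, so this comparison cannot show that matrix genes were called more often. Leaving out RB-BC 1 left 1 riser and 1 faller, the latter THBS1. Leaving out RB-BC 2 left 3 risers, COL6A2 and SDC4 among them, and 2 fallers, THBS1 and CCN2. Without DMSO 2, 25 rose.

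Among substrates of the lysyl oxidases, 5 of 10 other fibrillar collagen genes had enough counts to be tested, and 0 passed edgeR's test, with 0 at an unadjusted p under 0.05 and 0 called by DESeq2 or limma-voom. COL5A1, which sets fibril diameter, was at 82.3 ± 18.7 and 60.4 ± 0.34 CPM (SD, n = 2; −0.45 ± 0.19 SE, edgeR adjusted p = 0.150). Without DMSO 1 it was at −0.66, with DMSO 2 as the only control. Of 11 other collagen genes tested 1 rose and 1 fell, or 1 and 0 with library totals as the only scaling. COL6A2, a chain of the beaded-filament collagen VI, rose from 7.74 ± 1.97 to 19.3 ± 2.25 CPM (1.32 ± 0.23), and COL12A1, which coats fibrils, fell from 176 ± 22.8 to 98.1 ± 15.5 CPM (−0.84 ± 0.18).

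Of 15 elastic fibre and microfibril genes tested, 2 rose and 2 fell. Under library totals as the only scaling 1 rose and 0 fell, and with the replicate number as a block 1 rose and 2 fell. The microfibril gene FBN1 fell by 0.68 ± 0.14 and EFEMP1, a fibulin, by 0.77 ± 0.16, while the latent TGF-beta binding protein gene LTBP1 rose by 0.77 ± 0.17 and EFEMP2 by 0.99 ± 0.24. EFEMP2 encodes fibulin-4, which binds lysyl oxidase and elastin. ELN itself, the elastin gene, had 0.19 to 0.67 CPM and did not pass.

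Basement membrane genes, the surroundings of COL4A1 and COL4A2, had 3 of 17 rising and 0 falling by edgeR, with a median of 0.06. Among all tested genes 8.58% rose and 7.53% fell. At an unadjusted p under 0.05 none fell either, and DESeq2 and limma-voom called 0 falls. These 17 genes are too few to set 0 falls apart from the 7.53% over all tested genes. The laminin chain gene LAMB3 rose by 0.57 ± 0.14 and LAMA1, another laminin chain gene, at 2.58 ± 0.15 CPM in DMSO (SD, n = 2), by 1.14 ± 0.24. With library totals as the only scaling 1 of the 17 rose.

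Of 19 genes for collagen modification and folding 1 rose and 2 fell, with a median of 0.13. P4HA2, a collagen prolyl 4-hydroxylase subunit, rose by 0.89 ± 0.16, whereas P3H2, a prolyl 3-hydroxylase with collagen IV among its substrates, fell by 0.69 ± 0.14, and FKBP14, an endoplasmic reticulum prolyl isomerase, by 0.64 ± 0.16. With DESeq2 4 rose and 2 fell. Under library totals as the only scaling 1 rose and 0 fell. With the replicate number as a block, or with no low-count filter, 1 rose and 1 fell. The collagen chaperone gene SERPINH1, named after its values were seen, had 109 CPM (DMSO 1) and 236.5 CPM (DMSO 2), against 93.9 CPM (RB-BC 1) and 96.6 CPM (RB-BC 2), so that DMSO 2 stood apart. It did not pass (edgeR adjusted p = 0.138), and it was at −1.31 without DMSO 1, with DMSO 2 as the only control. Of 5 genes for procollagen processing 1 rose, PCOLCE, which enhances removal of the C-propeptide (1.23 ± 0.28, from 1.88 ± 0.21 CPM in DMSO; SD, n = 2). BMP1, the protease that cleaves both procollagen and the LOX proenzyme, is in that list and did not pass.

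Matricellular genes, the list that SPARC belongs to, had 2 of 11 rising and 2 falling. The falls were larger. THBS1, which encodes the adhesive glycoprotein thrombospondin-1, had 386 CPM (DMSO 1) and 481 CPM (DMSO 2), against 108 CPM (RB-BC 1) and 123 CPM (RB-BC 2), and fell by 1.91 ± 0.18 (edgeR adjusted p = 0.00685). CCN2, the connective tissue growth factor gene, fell from 534 ± 1.31 to 203 ± 18.4 CPM (−1.39 ± 0.15). THBS3 rose by 1.10 ± 0.19 and TNXB by 1.04 ± 0.19, the latter uncertain because a near-identical partial copy, TNXA, could share its reads. Of 8 small leucine-rich and related proteoglycan genes 2 were tested and 0 passed edgeR's test (1 higher and 1 lower at an unadjusted p under 0.05, and 0 by DESeq2 or limma-voom), with VCAN at 0.59 ± 0.33 and 0.21 ± 0.03 CPM (SD, n = 2; −1.51 ± 0.61 SE, edgeR adjusted p = 0.137).

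Receptors for collagen and fibronectin had 4 of 14 rising and 0 falling by edgeR, with a median of 0.23. Of all tested genes 8.58% rose and 7.53% fell. In this list 0 fell at an unadjusted p under 0.05 or by DESeq2 or limma-voom. These 14 genes are too few to set 0 falls apart from the 7.53% over all tested genes. SDC4, a syndecan that binds fibronectin, rose by 1.48 ± 0.17, ITGA2, of the collagen receptor α2β1, by 1.20 ± 0.22 and ITGA5, of the fibronectin receptor α5β1, by 0.86 ± 0.14. The fourth was MRC2, a collagen uptake receptor (0.63 ± 0.13), named to complete the count after its value was seen. MRC2 did not pass with the replicate number as a block (edgeR adjusted p = 0.0577) or with library totals as the only scaling (edgeR adjusted p = 0.0690). Without RB-BC 1, 0 of these 4 passed edgeR's test, although all 4 had an unadjusted p under 0.05, and without RB-BC 2 only SDC4 passed.

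Lysyl oxidases need copper, and of 7 copper supply genes 2 rose and 0 fell by edgeR, with a median of 0.61. At an unadjusted p under 0.05, 5 were higher and 0 lower, and DESeq2 and limma-voom each called 2 rises and 0 falls. The share of all tested genes at that unadjusted p is not given here. With 7 genes, 0 falls cannot be set apart from the 7.53% that fell over all tested genes. SLC31A1, the high-affinity copper importer, had 55.9 CPM (DMSO 1) and 59.3 CPM (DMSO 2), against 87.4 CPM (RB-BC 1) and 88.2 CPM (RB-BC 2), and rose by 0.61 ± 0.13 (edgeR adjusted p = 0.0341). SLC31A2 rose by 0.99 ± 0.20. ATP7A, the pump that loads copper into secreted enzymes, was at 0.65 ± 0.20 and did not pass (edgeR adjusted p = 0.0770). Neither riser passed with library totals as the only scaling (edgeR adjusted p = 0.0713 and 0.0674) or without either RB-BC library, and SLC31A1 did not pass with the replicate number as a block (edgeR adjusted p = 0.0636).

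**Figure D5:**
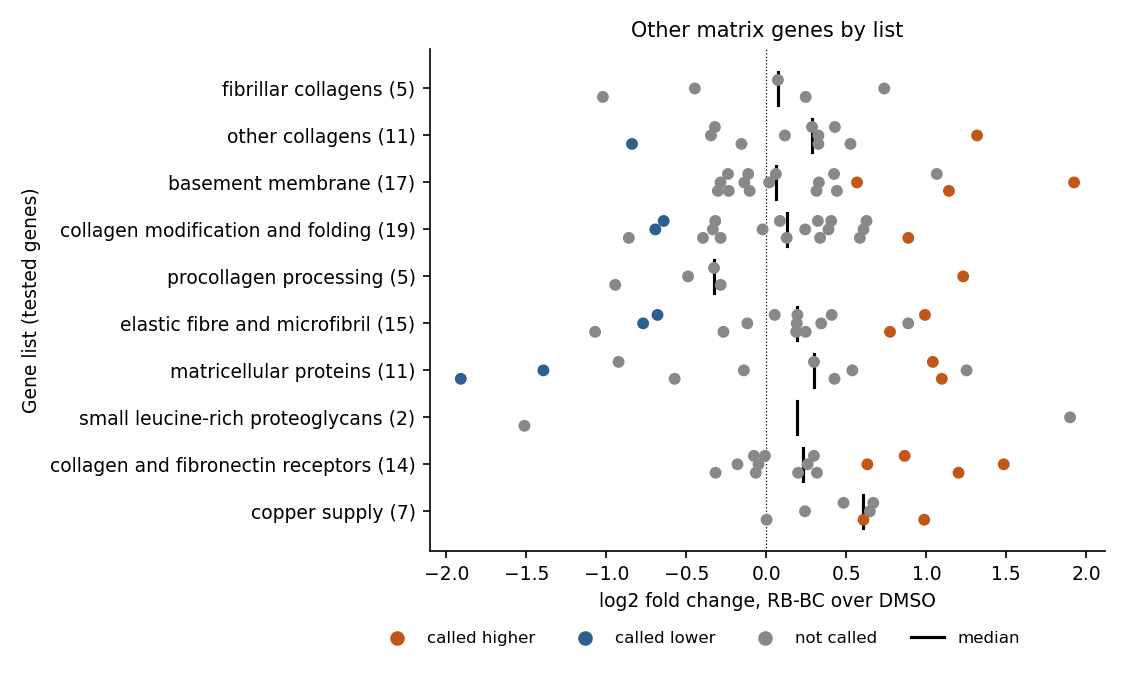
Log2 fold changes, RB-BC over DMSO, of the 106 tested genes in the 10 matrix lists, with 1 point per gene (orange, rose; blue, fell; grey, did not pass) and a black bar at each list's median. Basement membrane, procollagen processing, receptor and copper supply genes have orange points and no blue ones. Other collagens, collagen modification, elastic fibre and matricellular genes have both, and fibrillar collagens and proteoglycans have neither.

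Profiles over the 4 libraries were also compared by Euclidean distance between centred log2 CPM values, among members and listed genes with a mean of at least 50 counts. Of the 2 nearest to LOX, COL6A2 was at a distance of 0.39. The nearest to LOXL4 were EFEMP1 (0.06) and P3H2 (0.16), and those to COL1A1 were CCN2 (0.46) and EFEMP1 (0.49). LOXL1 and LOXL2 had the same nearest genes, COL5A1 and COLGALT2, at distances of 0.09 to 0.15. COL4A2 was nearest to P3H1 (0.06) and COL4A1 to LAMA3 (0.14), so neither collagen IV gene was the other's nearest. With 4 libraries of 1 experiment such likeness is a description.

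The label of the cells was checked against markers. Of 6 markers of the mesenchymal-like state, VIM had the highest level (3303 to 5465 CPM) and ZEB1 the lowest (58.0 to 113 CPM). With RB-BC 1 of the 6 rose, ZEB1 (edgeR adjusted p = 0.0220), and 1 fell, CAV1 (edgeR adjusted p = 0.0113). The epithelial cadherin gene CDH1 had at most 2 counts and the oestrogen receptor gene ESR1 at most 0.61 CPM. Of the 9 luminal epithelial markers 2 were below 1 CPM in every library, and the summed level of that list was 589 and 703 CPM in DMSO and 487 and 470 CPM in RB-BC, mostly from the keratin genes KRT8 and KRT18. Of 9 fibroblast markers, the usual source of collagen I in tumours, 8 were below 1 CPM in every library (all but PDGFRB), with COL1A2, DCN, THY1 and POSTN at 0 in all 4, and the summed level was 3.03 and 2.15 CPM in DMSO and 2.33 and 2.51 CPM in RB-BC. Of 6 leukocyte markers CD3E was at 0 in all 4 libraries and PTPRC was at most 1.10 CPM. The summed level of that list, 149 and 333 CPM in DMSO and 472 and 504 CPM in RB-BC, was almost all from the lysosomal gene CD68.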

How the data were processed

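The authors deposited whole-number read counts per Ensembl gene, 1 column per library, with no normalization that the values show. No source used here gives the aligner, counter, strand setting or annotation. The builds named per the submitters' processing notes are GRCm38 and mm10, mouse assemblies, while all gene identifiers are human, so genes carry no coordinates and only RefSeq promoter windows do. Libraries were made from 1.4 µg of total RNA with an mRNA kit, per the labels' protocols. Symbols came from an identifier table (20148 genes) and GENCODE release 29 (76), and 39 genes had none.

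Groups and replicate numbers came from the titles. edgeR 4.0.16 in R 4.3.3 was run on all genes kept by filterByExpr (minimum count 10, minimum total 15), with TMM scaling, a two-sided quasi-likelihood test and Benjamini-Hochberg adjustment, and was tested on simulated data. Transcript lengths are those of the longest protein-coding transcript in GENCODE release 29. The alternatives were RLE size factors, library totals, DESeq2 1.42.0, limma-voom (limma 3.58.1), a stricter filter (mean count 50) and none, the replicate number as a block, mitochondrially encoded genes removed, and each library left out. In each list up to 3 risers and 3 fallers with the smallest adjusted p were named, or the gene with most counts where none passed. COL1A2, ELN, BMP1, SERPINH1, MRC2 and ATP7A were named after their values had been seen. The members and lists were chosen with earlier results of these data known. Some listed genes and markers are not reported here by name.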

Additional observations from a re-analysis of the deposited data

How the results depend on the processing

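LOX rose in all 12 alternatives. LOXL4 and COL1A1 each passed in 9 of 12, and of the 10 genes the 2 that fell became 0 with library totals as the only scaling. With a library left out the fallers among the 10 ranged from 0 (either RB-BC library) to 4 (DMSO 1, where LOXL1 and LOXL2 passed). FN1 was the 1 gene whose sign turned, to −0.16 without DMSO replicate 1, beside 0.35 without DMSO replicate 2. SPARC could not be fitted with a mean of at least 50 counts, and its other 11 values were 0.11 to 1.00. Over all genes 1179 rose and 1035 fell. With library totals alone these were 790 and 415, so the split moved towards rises. DESeq2 called 1639 rises and 1583 falls. Leaving out a library gave 149 to 1888 rises and 56 to 1760 falls over all genes. The listed matrix genes had 10 rises and 2 falls with library totals alone, and 1 to 25 rises and 1 to 10 falls with a library left out. Of the 24 named list genes, 22 had passed, and 20 of these were lost when RB-BC 1 was left out and 17 when RB-BC 2 was. In those fits the DMSO pair alone sets the spread, and the lone RB-BC library is assumed to vary like it. With a DMSO library left out, the RB-BC pair alone sets the spread, and the lone DMSO library is assumed to vary like that pair. Calls gained without DMSO 1, as for LOXL1 and LOXL2, rest on that and on DMSO 2 as the only control. The replicate number as a block left 1152 rises and 962 falls over all genes and changed no call of the 10, while 4 of the 22 lost theirs (EFEMP2, LAMB3, FKBP14 and SLC31A1), as did MRC2. Same-numbered libraries did not deviate together (correlation of deviations −0.03), so the numbers are not known to pair them. LOXL3 and SPARC, at under 100 counts a library, are limited by depth. No 0 in these counts shows absence of a transcript.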
